A study of Mus musculus with 12 samples.

Results

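The genes of the microtubule motors, the kinesins, cytoplasmic dynein and dynactin, were examined in primary cortical neurons of neonatal C57BL/6J mice. Members were all protein-coding genes whose symbols begin with Kif and a digit, Klc1 to Klc4, Dync1 or Dync2, Dynll, Dynlr or Dynlt, or Dctn1 to Dctn6. The mitotic kinesins Kif11, Kif20a, Kif20b, Kif23 and Kif4 were left out. This gave 60 of the 55901 genes in the table, and 47 of the 60 had a mean of at least 0.5 FPKM (fragments per kilobase of gene length, scaled to the mapped fragments of the library) and were tested. One member, Kif1bp, encodes a protein that binds kinesins and is no motor itself.

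The 3 groups of 4 RNA-seq libraries were as follows. Control cultures were not injured, Trauma cultures were scratched, and Trauma+TGF-β1 cultures (labelled Tra_TGF) were scratched and given TGF-β1 at 10 ng/ml, and both injured groups were taken after 24 h. All cultures, Control included, had been treated with arabinosylcytosine, which blocks DNA synthesis and so limits glial growth. No source used here says whether the 4 libraries of a group came from separate animals or cultures, so p-values measure the spread between libraries, which may be technical.

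Kinesins carry cargo along microtubules, mostly toward the plus end, which in an axon points to the terminal. Cytoplasmic dynein carries cargo the other way, toward the cell body, and needs dynactin and cargo adaptors to move over long distances. Neurons depend on both, because synaptic vesicle precursors, mitochondria, lysosomes and signalling endosomes travel the length of the axon.

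The 12 libraries held 15052486 to 17381671 reads on genes, recovered from the FPKM and gene lengths. Defining neuronal markers were present, and the summed level of 9 of them (Tubb3, Map2, Rbfox3, Snap25, Syt1, Slc17a7, Gad1, Gad2 and Nefl) was 1380 to 1450 FPKM in Control, 1240 to 1320 FPKM after injury and 1170 to 1210 FPKM after injury with TGF-β1. Tubb3 made up most of this sum and of its difference, with means of 960, 842 and 739 FPKM, and the other 8 summed to 441 to 459, 427 to 444 and 440 to 456 FPKM in the same order. Of the 9, 2 rose and 2 fell in Trauma against Control, 2 rose and 2 fell with TGF-β1 against Trauma, and 3 rose and 4 fell with TGF-β1 against Control. The 8 astrocyte markers summed to 139 to 150, 185 to 228 and 209 to 227 FPKM in the same order, and 7 of them rose in Trauma against Control. The 8 microglial markers summed to 20.9 to 24.9, 31.3 to 39.9 and 25.2 to 29.3 FPKM, and 8 markers of the oligodendrocyte lineage to 46.3 to 49.1, 57.5 to 64.7 and 56.9 to 63.4 FPKM, in the same order of groups. Of this lineage, 5 markers were tested, and 2 rose and 0 fell in Trauma against Control. Means were 24.7, 34.0 and 34.0 FPKM for Olig1, 7.9, 7.15 and 6.87 FPKM for Olig2 and 4.07, 4.08 and 4.02 FPKM for Mog. The 5 endothelial and mural markers summed to at most 2.09 FPKM and 4 fibroblast markers to at most 2.5 FPKM, and no listed marker was at 0 in every library. The 10 genes of dividing cells summed to 2.11 to 2.93, 4.73 to 7.16 and 5.57 to 6.51 FPKM. In bulk libraries, fewer cells of a type and less RNA per cell cannot be told apart, and the part of these markers in the results that follow was not tested.

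TGF-β signals through SMAD proteins, which bind DNA at CAGAC, and many injury responses run through AP-1, which binds TGACTCA. Promoter sequences of RefSeq (GRCm38.p6) were found for 45 of the 60 members, in 52 entries, and the 250 bases before each start were searched for both words on both strands. Among the promoters of members, 22 of 52 (42.3%) held CAGAC or its complement GTCTG, against 42.2% of all 32851 promoters of the same length. None of the 52 held TGACTCA or TGAGTCA, which 4.46% of all promoters did. The promoters of 2 genes that rose and 2 genes that fell with TGF-β1 after injury are shown as examples, chosen after their values were seen as those with the lowest adjusted p in each direction among the members with an entry, and capitals mark CAGAC or GTCTG.
Dynlt3 (rose, chrX:9662984-9663233, minus strand): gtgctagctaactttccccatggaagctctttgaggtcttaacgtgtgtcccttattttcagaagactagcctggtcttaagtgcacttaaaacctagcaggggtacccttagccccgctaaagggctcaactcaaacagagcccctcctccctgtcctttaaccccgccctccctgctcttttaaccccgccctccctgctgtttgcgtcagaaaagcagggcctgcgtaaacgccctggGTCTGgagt
Kif21a (rose, chr15:91049952-91050201, minus strand): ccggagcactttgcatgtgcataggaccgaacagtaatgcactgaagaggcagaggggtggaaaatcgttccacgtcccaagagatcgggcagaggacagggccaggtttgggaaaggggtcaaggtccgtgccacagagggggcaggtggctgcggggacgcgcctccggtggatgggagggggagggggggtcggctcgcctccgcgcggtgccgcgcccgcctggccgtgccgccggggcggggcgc
Dctn2 (fell, chr10:127266012-127266261, plus strand): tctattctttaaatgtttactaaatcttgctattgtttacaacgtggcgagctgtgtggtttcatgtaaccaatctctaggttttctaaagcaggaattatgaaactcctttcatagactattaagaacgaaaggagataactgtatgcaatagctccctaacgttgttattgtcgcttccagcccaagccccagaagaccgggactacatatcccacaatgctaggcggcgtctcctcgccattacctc
Dctn3 (fell, chr4:41723164-41723413, minus strand): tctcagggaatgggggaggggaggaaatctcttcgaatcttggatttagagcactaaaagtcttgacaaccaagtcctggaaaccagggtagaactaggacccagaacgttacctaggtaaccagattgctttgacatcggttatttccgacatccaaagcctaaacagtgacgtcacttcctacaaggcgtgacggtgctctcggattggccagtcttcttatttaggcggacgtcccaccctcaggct
Of these 4, only the promoter of Dynlt3 held the word. The annotated gene of Dynlt3 in the table begins upstream of this RefSeq start, at chrX:9663003, so the marked word lies inside the annotated gene. Of the 6 entries of members higher with TGF-β1 (Dynlt3, Kif21a, and a pair each for Dync1i2 and Kif2a), 2 held it (33.3%), that of Dynlt3 and 1 of the pair of Dync1i2. None of the 3 entries of lower members (Dctn2, Dctn3 and Kif1c) did. The first bases after the RefSeq starts of Kif21a and Dctn2 were not found in GENCODE transcripts of these genes, whereas those of Dynlt3 and Dctn3 were. A match is a description of the letters and not of a bound site.

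Levels of the motor genes spanned a wide range. The highest was Kif1a, the kinesin-3 that carries synaptic vesicle precursors and dense-core vesicles, with a mean of 219 FPKM over the 12 libraries. Its lowest library (206 FPKM) lay above the highest library of the next gene, Kif5c (190 FPKM). Kif5c (178 FPKM) and Kif5a (134 FPKM), the neuronal heavy chains of conventional kinesin (kinesin-1), followed with the dynein light chains Dynll2 (144 FPKM) and Dynlrb1 (132 FPKM) and the kinesin light chain Klc1 (133 FPKM). Within this run of genes the ranges of neighbours over the libraries overlapped. Kif5c nevertheless lay above Dynll2 within each of the 12 libraries. Its lowest library (164 FPKM) also lay above the highest of Kif5a (146 FPKM), Klc1 (151 FPKM) and Dynlrb1 (155 FPKM). The order of Dynll2, Kif5a, Klc1 and Dynlrb1 was not resolved.

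The next genes were the dynactin subunits Dctn3 (99.3 FPKM) and Dctn1 (88.4 FPKM), the dynein heavy chain Dync1h1 (87.4 FPKM) and the kinesin-4 Kif21b (75.3 FPKM). Dctn3 was set apart from Dynlrb1 above it, whereas neighbours from Dctn3 down to Kif1b (70.0 FPKM) overlapped. The broadly expressed heavy chain Kif5b stood at 26.8 FPKM and made up 7.41% ± 0.383 (SD, n = 4) of the summed FPKM of the 3 Kif5 genes in Control, against 40.2% ± 1.03 for Kif5a and 52.4% ± 0.78 for Kif5c. Kif17, the homodimeric kinesin-2 of dendrites, was low at 2.16 FPKM. Kif7, a kinesin-4 of the primary cilium, was the last gene above the minimum (0.619 FPKM), and its relative Kif27 was the first below it (0.442 FPKM).

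**Figure D1:**
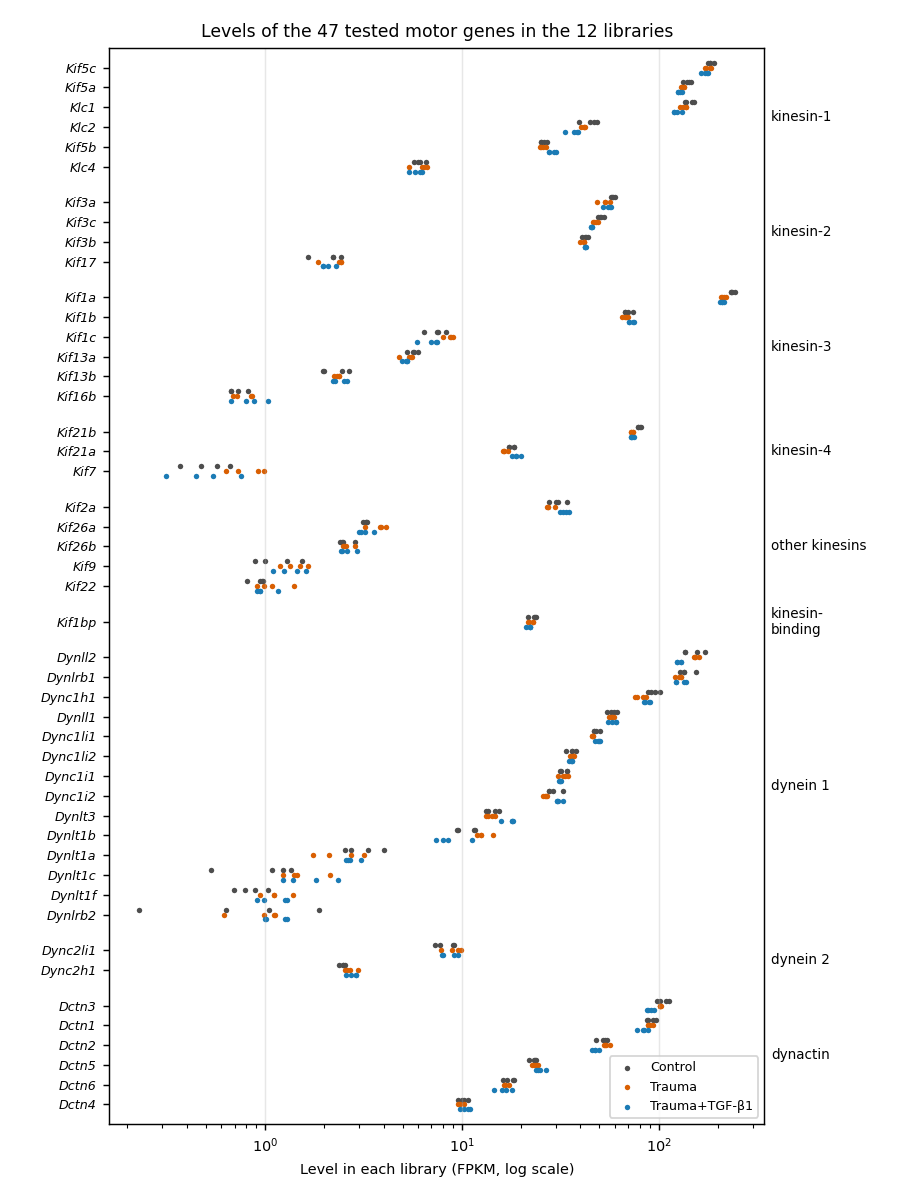
Level of each of the 47 tested motor genes in each of the 12 libraries, in FPKM on a log axis, grouped by family and ordered by mean level within a family. Each point is 1 library (grey Control, orange Trauma, blue Trauma+TGF-β1). Kif1a lies highest, with all libraries between 206 and 243 FPKM, and the points of the 3 groups lie close together for most genes.

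The first comparison asked how the motor genes stood 24 h after the scratch. Of the 47 tested members, 3 fell in Trauma against Control and 0 rose (limma, adjusted p at most 0.05). They were Kif1a, Dync1h1 and Kif21b, so the most abundant kinesin, the motor subunit of dynein and the more abundant neuronal kinesin-4 fell by 7.39% to 13.6%, while every dynactin subunit and kinesin-1 chain missed the threshold. The 3 make up 6.38% of the members, against 5.82% of all 15016 genes tested (3.5% higher and 2.32% lower), so the share was near that of all genes. The median log2 fold change of the members was -0.0135, against -0.0025 for all tested genes.

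Kif1a was at 232, 243, 235 and 232 FPKM in the Control libraries and at 219, 214, 210 and 208 FPKM in the Trauma libraries. Every Trauma library lay below every Control library. The log2 fold change was -0.14 (SE 0.029, adjusted p = 0.0165). Dync1h1, whose product holds the ATPase rings of cytoplasmic dynein, was at 101, 95.8, 91.6 and 88.4 FPKM in Control and 86.0, 83.0, 77.9 and 76.1 FPKM in Trauma. The groups again did not overlap, with a log2 fold change of -0.21 (SE 0.049, adjusted p = 0.0264). Kif21b, a motor that also restrains microtubule growth, was at 78.4, 79.9, 81.2 and 78.6 FPKM in Control and 74.4, 71.9, 74.4 and 72.0 FPKM in Trauma, again without overlap. Its log2 fold change was -0.11 (SE 0.028, adjusted p = 0.04).

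Groups did not overlap for 9 of the 47 members (19.1%), 7 of them lower and 2 higher in Trauma, against 12.9% of all tested genes. Beside the 3 that passed, Kif3a (-0.13, adjusted p = 0.122), Kif21a (-0.10, adjusted p = 0.206), Dync1i2 (-0.13, adjusted p = 0.181) and Dync1li1 (-0.052, adjusted p = 0.453) lay lower in all 4 Trauma libraries on the log2 scale. Dynlt1b (0.29, adjusted p = 0.203) and Dync2h1 (0.13, adjusted p = 0.352) lay higher in all 4. None of these 6 passed the test over all genes.

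The neuronal kinesin-1 chains did not pass. Kif5a averaged 140 ± 5.75 FPKM in Control and 132 ± 2.04 in Trauma (SD, n = 4 each), a log2 fold change of -0.076 with a 95% interval of -0.15 to 0.00. For Kif5c the interval was -0.11 to 0.04, and for Klc1 -0.18 to 0.02. The subunits of dynactin, which links dynein to cargo, had fold changes between -0.05 and 0.06 on the log2 scale. Over all 47 members the 95% interval lay within 0.5 of 0 on the log2 scale for 39, and the wider ones belonged to the low genes Dynlt1a, Dynlt1c, Dynlt1f, Dynlrb2, Kif9, Kif22 and Kif7 and to Dynlt1b. Changes in those 8 were therefore less closely bounded at this depth.

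These 3 calls changed when single libraries were left out. None of the 3 remained without Trauma 3 or without Trauma 4, and 1 remained without Control 2. Over all genes, 568, 464 and 751 passed in these fits, against 874 with every library. Without Trauma 3 and without Trauma 4, log2 fold changes were -0.131 and -0.126 for Kif1a, -0.195 and -0.184 for Dync1h1, and -0.12 and -0.104 for Kif21b. In a fit of the 2 groups alone 0 members passed (limma, 529 of all genes did), although 12 of the 47 had an unadjusted p under 0.05 in the fit of all libraries. The 3 genes have transcripts of 53.5% to 56.3% GC, and they also passed after a correction for GC content, with Kif5a added (-0.097, adjusted p = 0.0325), when 7.64% of all genes passed.

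**Figure D2:**
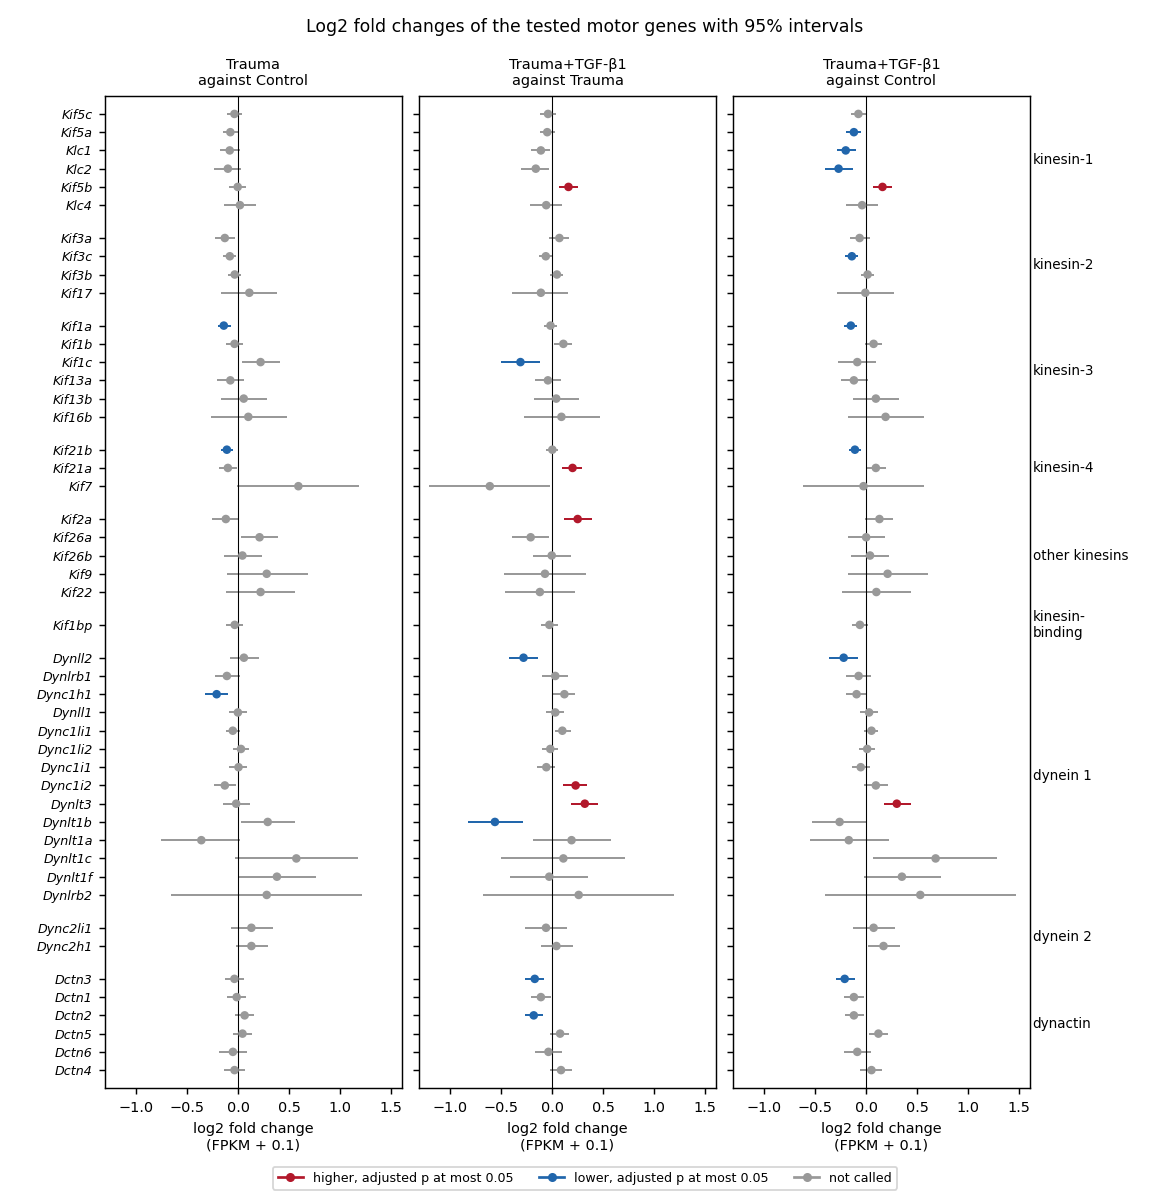
Log2 fold change of FPKM + 0.1 for each tested motor gene (points) with its 95% interval (lines) for, from left to right, injury against Control, TGF-β1 against injury alone and TGF-β1 against Control. Red genes were higher and blue genes lower at an adjusted p of at most 0.05, and grey genes did not pass. Blue genes number 3, 5 and 8 from left to right and red genes 0, 5 and 2, and the interval of most genes lies within 0.5 of 0.

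The second comparison asked how TGF-β1 changed the motor genes of scratched cultures. In all, 10 of the 47 members passed in Trauma+TGF-β1 against Trauma, 5 higher and 5 lower, and every family with a called gene also held tested genes that did not pass. Higher were the broadly expressed kinesin-1 heavy chain Kif5b, the kinesin-4 Kif21a, the microtubule depolymerase Kif2a, the dynein intermediate chain Dync1i2 and the dynein light chain Dynlt3. Lower were the dynactin subunits Dctn2 and Dctn3, the dynein light chains Dynll2 and Dynlt1b and the kinesin-3 Kif1c. The 10 make up 21.3% of the members, against 12.3% of all tested genes (4.64% higher and 7.63% lower). With only genes of a mean of at least 1 FPKM tested, 22.2% of the members and 15.5% of all genes passed. Members had a median log2 fold change of -0.0176 and all tested genes one of 0.0052.

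The split of the calls turned with the scaling. After quantile normalization 10 members were higher and 3 lower, and 54.8% of the calls over all genes were higher, against 37.8% without it. In that setting 13.7% of all genes passed. After a correction for the GC content of the transcripts 1 member was higher (Kif21b, 0.12, adjusted p = 0.0345) and 3 were lower (Dynll2, Dctn2 and Dynlt1b), and 5.79% of all genes passed.

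Dynlt3, a light chain of the Tctex type, was at 14.8, 13.5, 14.3 and 13.3 FPKM in Trauma and at 17.9, 17.9, 15.8 and 18.1 FPKM in Trauma+TGF-β1. All 4 treated libraries lay above all 4 untreated ones. The log2 fold change was 0.32 (SE 0.062, adjusted p = 0.0114), and after GC correction it was 0.17 (adjusted p = 0.0539). Kif21a, a kinesin-4 that holds back microtubule growth at the cell cortex, was at 16.1, 16.4, 17.2 and 16.4 FPKM in Trauma and 17.9, 18.9, 19.9 and 18.9 FPKM with TGF-β1, without overlap. The log2 fold change was 0.20 (SE 0.042, adjusted p = 0.0157), and after GC correction it was 0.15 (adjusted p = 0.0602).

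Dync1i2, an intermediate chain through which dynein meets dynactin, was at 26.7, 25.9, 27.0 and 26.5 FPKM in Trauma and 30.7, 30.3, 30.4 and 32.7 FPKM with TGF-β1. The groups did not overlap, with a log2 fold change of 0.23 (SE 0.052, adjusted p = 0.0188). Its neuronal relative Dync1i1 averaged 32.9 ± 1.57 FPKM in Trauma and 31.5 ± 0.381 FPKM with TGF-β1 and did not pass (-0.057, 95% interval -0.15 to 0.03). Kif2a, a kinesin that takes microtubules apart from their ends and limits branch growth, was at 29.9, 27.3, 27.1 and 27.4 FPKM in Trauma and 32.6, 35.0, 31.5 and 34.0 FPKM with TGF-β1. All treated libraries lay above the untreated ones, with a log2 fold change of 0.25 (SE 0.062, adjusted p = 0.0237). After GC correction the changes of Dync1i2 and Kif2a were both 0.11 (adjusted p = 0.114 and 0.152).

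Kif5b was at 26.7, 25.8, 24.9 and 25.3 FPKM in Trauma and 29.3, 30.2, 27.6 and 27.7 FPKM with TGF-β1, again without overlap. The log2 fold change was 0.16 (SE 0.04, adjusted p = 0.0253), and after GC correction it was 0.03 (adjusted p = 0.661). Its share of the summed Kif5 FPKM was 7.64% ± 0.131 in Trauma and 8.72% ± 0.298 with TGF-β1 (SD, n = 4), and these ranges did not overlap. Kif5a (-0.048, 95% interval -0.12 to 0.03) and Kif5c (-0.04, 95% interval -0.12 to 0.04) did not pass. The difference between the 3 genes was not tested.

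In dynactin, Dctn2 and Dctn3 of the shoulder, which holds the long arm of the complex, lay lower. Dctn2 (dynamitin) was at 53.0, 53.1, 53.8 and 56.4 FPKM in Trauma and 47.5, 45.7, 49.9 and 47.4 FPKM with TGF-β1, and Dctn3 at 103, 102, 102 and 102 FPKM and 91.3, 88.3, 94.6 and 87.5 FPKM. Neither pair of groups overlapped. Dctn2 fell by 0.18 on the log2 scale (SE 0.043, adjusted p = 0.0217) and Dctn3 by 0.17 (SE 0.043, adjusted p = 0.026). Dctn1, the long arm itself, had a fold change of -0.11 (adjusted p = 0.135). The pointed-end members Dctn4 (0.087), Dctn5 (0.078) and Dctn6 (-0.036) did not pass, with adjusted p-values of 0.27, 0.257 and 0.755. After GC correction Dctn2 still passed (-0.13, adjusted p = 0.0456), whereas Dctn3 did not (-0.075, adjusted p = 0.125), and Dctn1 turned to 0.071 (adjusted p = 0.335). After quantile normalization 0 of the 6 dynactin genes passed (adjusted p = 0.11 for Dctn2 and 0.293 for Dctn3). Transcripts of Dctn1 to Dctn3 have 52.4% to 59.0% GC and those of Dctn4 to Dctn6 44.5% to 49.8%.

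Dynll2, an LC8 light chain that also binds many proteins outside dynein, was at 151, 152, 153 and 160 FPKM in Trauma and 124, 124, 130 and 130 FPKM with TGF-β1. The groups did not overlap, and the log2 fold change of -0.28 (SE 0.065, adjusted p = 0.0203) was -0.24 after GC correction (adjusted p = 0.0332). The second LC8 gene, Dynll1, averaged 57.5 ± 1.44 and 58.7 ± 2.45 FPKM and did not pass (0.031, 95% interval -0.06 to 0.12). Kif1c, a kinesin-3 of Golgi and integrin traffic, was at 7.98, 8.71, 8.83 and 8.98 FPKM in Trauma and 7.45, 5.95, 7.40 and 6.94 FPKM with TGF-β1, without overlap. It fell by 0.31 on the log2 scale (SE 0.087, adjusted p = 0.0377), and by 0.21 after GC correction (adjusted p = 0.104).

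Dynlt1b showed the largest called fold change, and its value is uncertain. It was at 12.5, 14.4, 12.5 and 12.0 FPKM in Trauma and 11.3, 8.48, 7.37 and 8.02 FPKM with TGF-β1, a log2 fold change of -0.56 (SE 0.12, adjusted p = 0.0165). The value rests on 92 to 194 reads per library. The gene is 1 of a cluster of near-identical copies on chromosome 17 (Dynlt1a, Dynlt1b, Dynlt1c and Dynlt1f), and a pseudogene on chromosome 6, Dynlt1-ps1, was listed at 57.9 to 110 FPKM. Reads of one copy can be counted for another. The copies Dynlt1a (0.19), Dynlt1c (0.11) and Dynlt1f (-0.028) did not pass on the log2 scale.

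The 3 genes that fell after injury did not pass between Trauma and Trauma+TGF-β1. For Kif1a the 95% interval of the log2 fold change was -0.08 to 0.05, and for Kif21b it was -0.06 to 0.06. Dync1h1 averaged 80.8 ± 4.56 FPKM in Trauma and 87.4 ± 3.1 FPKM with TGF-β1 (0.12, 95% interval 0.01 to 0.22, adjusted p = 0.136), and the groups overlapped. Under quantile normalization Kif1a (0.13, adjusted p = 0.0095) and Dync1h1 (0.22, adjusted p = 0.0131) were higher than in Trauma.

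Groups did not overlap for 15 of the 47 members (31.9%), 8 higher and 7 lower, against 22.2% of all tested genes. Members that did so without passing were Kif1b (0.11, adjusted p = 0.0854), Dync1li1 (0.10, adjusted p = 0.0618) and Kif3b (0.047, adjusted p = 0.336) above, and Klc2 (-0.16, adjusted p = 0.109) and Kif3c (-0.062, adjusted p = 0.197) below. The number of calls fell to 3 (6.38%) without Trauma+TGF-β1 library 2, 3 higher and 0 lower, when 4.28% of all genes passed. It fell to 4 (8.51%) without Trauma 4 and to 5 (10.6%) without Trauma+TGF-β1 library 4, against 5.74% and 5.34% of all genes. It was 6 (12.8%) without Trauma 2 or without Trauma 3, against 5.34% and 8.72% of all genes.

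**Figure D3:**
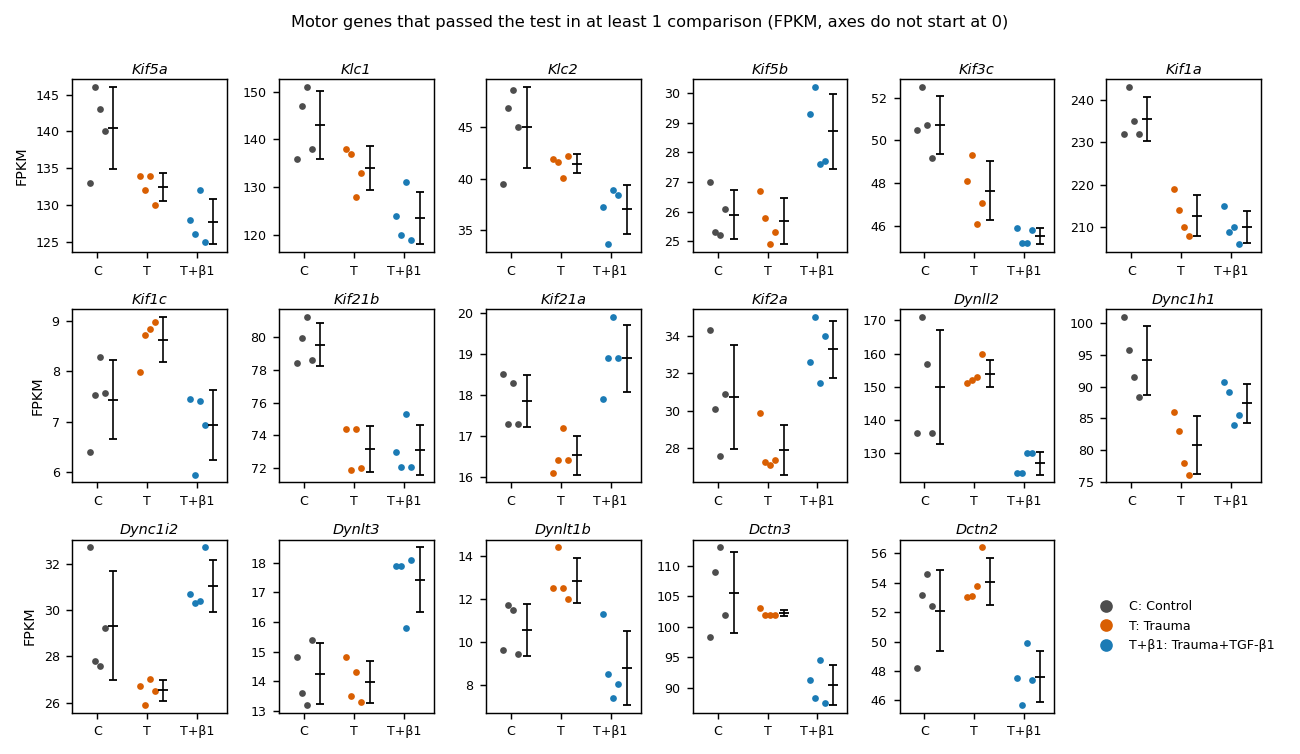
FPKM of the 17 motor genes that passed in at least 1 comparison, with 1 panel per gene and an axis that does not start at 0. Points are libraries (C, Control, T, Trauma, T+β1, Trauma+TGF-β1, n = 4 each), and the black dash with bars beside each group is its mean ± SD. Kif1a and Kif21b lie lower in both injured groups, whereas Dynll2, Dctn2 and Dctn3 lie lower with TGF-β1 and Dynlt3 and Kif5b higher.

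GC content of the transcripts ran with the change between treated and untreated injured cultures. The 5 members that rose had transcripts of 40.9% to 46.9% GC and the 5 that fell of 49.8% to 55.4% GC, with no overlap. Across the 47 tested members, which share libraries and scaling, Spearman's rho between GC content and log2 fold change was -0.719, and across the 14699 tested genes of known GC it was -0.479. Genes are not independent replicates, so no p is given. The median log2 fold change of all tested genes was 0.16 at 39% to 42% GC, where Dynlt3 and Kif2a lie, and -0.042 at 51% to 54% GC, where Dynll2 and Dctn2 lie. In Trauma+TGF-β1 against Control rho was -0.662 across the members and -0.37 across all genes, and the 2 members that rose had 40.9% to 42.1% GC and the 8 that fell 51.8% to 59.3% GC. In Trauma against Control rho was 0.014 across the members and 0.09 across all genes. The part of GC content in these results was not tested beyond the correction.

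**Figure D4:**
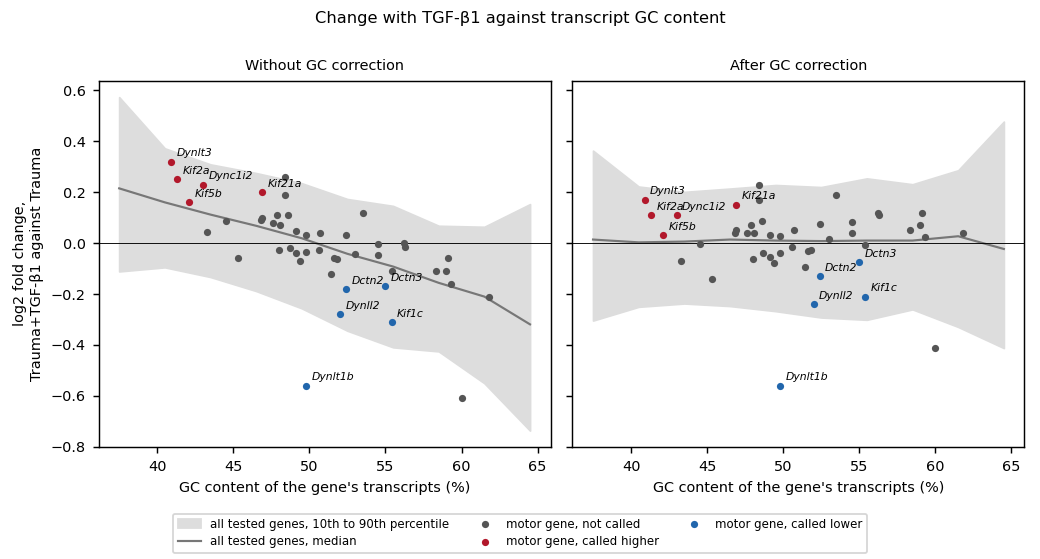
Log2 fold change in Trauma+TGF-β1 against Trauma, against the GC content (percent) of each gene's transcripts, without GC correction (left) and after it (right). The grey line and band are the median and the 10th to 90th percentile of all tested genes in bins of GC content, and points are motor genes, coloured by the call without correction. On the left the called higher genes lie at 40.9% to 46.9% GC and the called lower genes at 49.8% to 55.4% GC, and on the right the grey median is flat.

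The third comparison set Trauma+TGF-β1 against Control, and it shares its samples with both others. There, 2 members were higher, Kif5b and Dynlt3, and 8 were lower, Kif5a, Klc1 and Klc2 of kinesin-1, Kif3c of kinesin-2, Kif1a of kinesin-3, Kif21b of kinesin-4, the dynactin subunit Dctn3 and the dynein light chain Dynll2. The 10 make up 21.3% of the members, against 16.3% of all tested genes (6.85% higher and 9.46% lower). With only genes of a mean of at least 1 FPKM tested, 22.2% of the members and 19.4% of all genes passed. Member and overall medians on the log2 scale were -0.0077 and 0.0031. After quantile normalization 5 members were higher (Kif5b, Dynlt3, Kif1b, Dync1li1 and Dctn5) and 0 lower, and 55.3% of all calls were higher, against 42.0% without it. In that setting 13.7% of all genes passed. After GC correction 1 was higher (Dynlt3, 0.18, adjusted p = 0.0245) and 4 were lower (Dynll2, Klc1, Dctn3 and Kif3c), when 12.6% of all genes passed. Of the 10, Kif5a, Kif5b, Klc2, Kif1a (-0.053, adjusted p = 0.338) and Kif21b (-0.01, adjusted p = 0.872) did not pass in the GC-corrected values.

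In kinesin-1, 4 of the 6 tested genes passed, against 16.3% of all tested genes. After GC correction 1 of the 6 passed (Klc1, -0.11, adjusted p = 0.0306), and after quantile normalization 1 did (Kif5b, 0.24, adjusted p = 0.00386). Klc2, a light chain that links the heavy chains to cargo, was at 39.5, 46.9, 48.6 and 45.0 FPKM in Control and 37.2, 33.6, 38.9 and 38.4 FPKM in Trauma+TGF-β1. The groups did not overlap, although Control 1 (39.5 FPKM) lay close to the highest treated library (38.9 FPKM). Its log2 fold change was -0.27 (SE 0.063, adjusted p = 0.0146), and after GC correction -0.096 (adjusted p = 0.087). Klc1, the main light chain of neurons, was at 136, 147, 151 and 138 FPKM in Control and 124, 120, 131 and 119 FPKM in Trauma+TGF-β1, with a log2 fold change of -0.20 (SE 0.045, adjusted p = 0.013). The light chains together averaged 194 ± 11.3 FPKM in Control, 182 ± 5.35 FPKM after injury and 167 ± 6.94 FPKM with TGF-β1 (SD, n = 4).

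Kif5a was at 133, 146, 143 and 140 FPKM in Control and 128, 126, 132 and 125 FPKM in Trauma+TGF-β1 (-0.12, SE 0.034, adjusted p = 0.0287). Kif5b was at 27.0, 25.3, 25.2 and 26.1 FPKM in Control against the 27.6 to 30.2 FPKM with TGF-β1 (0.16, SE 0.04, adjusted p = 0.0213). In both genes the groups did not overlap in the deposited values, Kif5a below and Kif5b above Control, but neither passed after GC correction (Kif5a -0.057, adjusted p = 0.15, and Kif5b 0.051, adjusted p = 0.352). Kif5c also lay lower in all 4 treated libraries but did not pass (-0.076, adjusted p = 0.18).

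Kif3c, the partner of Kif3a in a neuronal form of kinesin-2, was at 50.5, 52.5, 50.7 and 49.2 FPKM in Control, 48.1, 49.3, 46.1 and 47.1 FPKM in Trauma and 45.9, 45.2, 45.2 and 45.8 FPKM in Trauma+TGF-β1. The treated libraries lay below all others, and against Control the log2 fold change was -0.14 (SE 0.03, adjusted p = 0.00884). Kif3b, the partner in the common form, averaged 42.5 ± 1.27, 41.2 ± 0.986 and 42.5 ± 0.297 FPKM in the 3 groups (0.014 against Control, 95% interval -0.05 to 0.08). Kif17 averaged 2.13 ± 0.339, 2.27 ± 0.279 and 2.08 ± 0.154 FPKM, and its interval against Control, -0.29 to 0.27, was too wide to show a small change.

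Kif1a was also lower with TGF-β1 than in Control, at 215, 209, 210 and 206 FPKM (-0.15, SE 0.029, adjusted p = 0.005), but its direction turned under quantile normalization (0.022, adjusted p = 0.559). Kif21b was at 73.0, 72.1, 75.3 and 72.1 FPKM (-0.11, SE 0.028, adjusted p = 0.0231). Neither gene overlapped with Control in the deposited values. Kif1b averaged 69.7 ± 3.26 FPKM in Control and 72.7 ± 2.13 FPKM with TGF-β1 and did not pass (0.073, adjusted p = 0.22).

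Among the dynein and dynactin genes, Dctn3 (98.4, 109, 113 and 102 FPKM in Control) had a log2 fold change of -0.21 (SE 0.043, adjusted p = 0.00821). Dynll2 (136, 171, 157 and 136 FPKM in Control) had one of -0.22 (SE 0.065, adjusted p = 0.0378). Dynlt3 (14.8, 13.6, 13.2 and 15.4 FPKM in Control) had one of 0.30 (SE 0.062, adjusted p = 0.00778), and it was the only one of the 10 calls of this comparison to pass in all of the alternatives tried. All 3 genes had groups that did not overlap. Dctn2 (-0.12, adjusted p = 0.087) and Dync1h1 (-0.094, adjusted p = 0.217) did not pass. Of the 47 members, 15 (31.9%) had groups that did not overlap, 11 lower and 4 higher, against 18.5% of all tested genes. Calls fell to 6 (12.8%) without Control 2, without Control 3 or without Trauma+TGF-β1 library 2, and to 6 in a fit of the 2 groups alone. Of all genes, 9.86%, 9.6%, 9.58% and 10.1% passed in these fits, in the same order.

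Summed over families, the FPKM of the 60 members was 2110 ± 47.4 in Control, 2010 ± 28.2 after injury and 1970 ± 10.5 with TGF-β1 (SD, n = 4). In reads, the members held 1.36% ± 0.0176, 1.32% ± 0.0152 and 1.32% ± 0.0108 of all reads on genes. Kinesin-3, in which Kif1a dominates, summed to 321 ± 5.41, 297 ± 6.22 and 298 ± 5.12 FPKM, and kinesin-4 to 98.3 ± 1.5, 91 ± 1.51 and 93 ± 2.25 FPKM. Kinesin-1 summed to 544 ± 17.9, 518 ± 12.5 and 496 ± 11.5 FPKM. Dynactin summed to 300 ± 13.1 and 296 ± 2.97 FPKM in Control and Trauma and 273 ± 7.66 FPKM with TGF-β1. Cytoplasmic dynein 1, its light chains included, summed to 617 ± 22.6, 594 ± 8.85 and 583 ± 12.2 FPKM. The neuronal marker sum was 1410 ± 31.3, 1280 ± 33.3 and 1190 ± 18.5 FPKM, and without Tubb3 it was 451 ± 8.99, 434 ± 7.13 and 448 ± 7.66 FPKM. Its part in these sums was not tested.

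Members of cytoplasmic dynein 2, which drives transport inside cilia, did not pass. Dync2li1 had a mean of 8.67 FPKM over the libraries and Dync2h1 a lower one of 2.66 FPKM. Dync2li1 averaged 8.31 ± 0.891 FPKM in Control, 9.05 ± 0.92 in Trauma and 8.66 ± 0.801 with TGF-β1. Its log2 fold change was 0.13 after injury (adjusted p = 0.502) and -0.06 with TGF-β1 against Trauma (adjusted p = 0.725). Dync2h1 averaged 2.48 ± 0.0669 FPKM in Control, 2.71 ± 0.186 in Trauma and 2.79 ± 0.158 with TGF-β1, and both injured groups lay above Control without overlap. Its adjusted p against Control was 0.352 in Trauma and 0.121 with TGF-β1. Kif7 averaged 0.52 ± 0.128, 0.821 ± 0.167 and 0.515 ± 0.186 FPKM from 23 to 81 reads per library, with log2 fold changes of 0.59 after injury (adjusted p = 0.265) and -0.61 with TGF-β1 against Trauma (adjusted p = 0.159). Its groups overlapped in both comparisons.

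The remaining 13 members lay below 0.5 FPKM and were not tested, namely Kif27, Kif24, Kif15, Kif18b, Kif2c, Kif19a, Kif6, Kif18a, Klc3, Kif14, Kif28, Kif12 and Kif2b. Kif2b was at 0 reads in all 12 libraries, and Kif12 had 1 read in a single Trauma+TGF-β1 library. Klc3, the kinesin light chain known from the testis, had 0 to 15 reads per library. In all, 7 members were grouped as genes of cell division (Kif2c, Kif14, Kif15, Kif18a, Kif18b, Kif22 and Kif24), of which Kif22 alone was tested. They summed to 1.99 ± 0.18 FPKM in Control, 2.7 ± 0.395 in Trauma and 2.7 ± 0.261 with TGF-β1. Kif18b, which shortens spindle microtubules, had 3 to 7 reads in Control, 6 to 33 in Trauma and 14 to 31 with TGF-β1, and its relative Kif18a had 10 to 28, 31 to 53 and 27 to 34 reads. In the same order of groups, means were 0.147, 0.315 and 0.263 FPKM for Kif2c and 0.0793, 0.103 and 0.124 FPKM for Kif14. Those of Kif15 were 0.279, 0.311 and 0.407 FPKM, and those of Kif22 were 0.924, 1.1 and 0.992 FPKM. Kif24 alone had a lower mean in Trauma (0.293 FPKM) than in Control (0.371 FPKM), and it was at 0.356 FPKM with TGF-β1. The dividing-cell markers lay higher in both injured groups than in Control, as given at the start, and their part in these values was not tested.

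Partners of the motors were examined from a list of 41 genes that are no members, of which 38 were tested. After injury 1 of them was higher and 0 were lower (2.63%), with TGF-β1 3 were higher and 2 lower than in Trauma (13.2%), and 3 were higher and 8 lower with TGF-β1 than in Control (28.9%). These shares compare with 5.82%, 12.3% and 16.3% of all tested genes. After GC correction 3 of the 38 passed after injury (Nde1, Bicd2 and Kifap3, 7.89%), 1 with TGF-β1 against Trauma (Arl8a, 2.63%) and 3 with TGF-β1 against Control (Nde1 higher, Arl8a and Ndel1 lower, 7.89%), against 7.64%, 5.79% and 12.6% of all genes. Nde1, a dynein regulator that is also active in dividing progenitors, rose from 2.11 ± 0.172 FPKM in Control to 3.23 ± 0.655 in Trauma (0.59, adjusted p = 0.0163) and 3.45 ± 0.306 with TGF-β1 (0.69, adjusted p = 0.00375). Its relative Ndel1 fell from 27.3 ± 1.74 to 24.2 ± 0.831 FPKM with TGF-β1 against Control (-0.16, adjusted p = 0.0363). Pafah1b1 (Lis1), another dynein regulator, did not pass in any comparison, with fold changes of -0.032, 0.049 and 0.017 on the log2 scale.

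Among the cargo adaptors, Arl8a, a GTPase that ties lysosomes to kinesins, fell from 152 ± 1.03 FPKM in Trauma to 129 ± 6.44 with TGF-β1 (-0.23, adjusted p = 0.0111), and it also passed after GC correction (-0.19, adjusted p = 0.0139). Its relative Arl8b went the other way, from 38.7 ± 0.985 to 45.5 ± 4.92 FPKM, and did not pass (0.23, adjusted p = 0.051). For Arl8b the change was 0.12 after GC correction (adjusted p = 0.21) and 0.31 after quantile normalization (adjusted p = 0.0243). Mapk8ip1, the kinesin-1 adaptor JIP1, fell from 102 ± 3 to 88.9 ± 5.53 FPKM (-0.20, adjusted p = 0.023), but not after GC correction (-0.02, adjusted p = 0.738). The dynein adaptors Hook1 (0.26, adjusted p = 0.0372) and Bicd1 (0.27, adjusted p = 0.0497) rose in the same comparison, with transcripts of 40.7% and 39.5% GC, and neither passed after GC correction (adjusted p = 0.413 and 0.543). Capza2, which caps the actin-like filament of dynactin, rose as well (0.16, adjusted p = 0.0456), with 38.4% GC, and did not pass after GC correction (-0.04, adjusted p = 0.58). Kifap3, the third subunit of the common kinesin-2, did not pass in any comparison before GC correction or quantile normalization, with adjusted p-values of 0.0941, 0.058 and 0.994. After quantile normalization it was higher in Trauma+TGF-β1 than in Trauma (0.26, adjusted p = 0.0212).

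Counting by gene was not stated to use strand, and 9 of the 17 called members overlap other genes in the annotation of the table. In mean FPKM the overlapping genes were far lower than the member in each case, the nearest being Dimt1 at 3.43 FPKM beside Kif2a at 30.6 FPKM and Il11ra1 at 2.47 FPKM beside Dctn3. The gap was smaller in reads. Il11ra1 had up to 227 reads in a library, where Dctn3 had at least 1436, and Dimt1 up to 255, where Kif2a had at least 2775. The part of overlapping genes in the calls was not tested.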

How the data were processed

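Poly(A) RNA was sequenced from 12 libraries, 4 each of Control, Trauma and Trauma+TGF-β1 cultures. The authors aligned paired-end reads with HISAT2 2.0.5 to mm10 (per the submitters' processing notes), counted reads per gene, and deposited FPKM from gene length and mapped reads. The gene length in base pairs is the other deposited column used. FPKM times length gave whole reads for 100% of genes (tolerance 0.01 reads) in every library, 15052486 to 17381671 reads on genes, and more reads give a gene a smaller error.

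Median-of-ratios factors of the tested genes (0.99906 to 1.0115) were divided out of the FPKM, 0.1 was added as a pseudocount, and log2 values were fitted with limma 3.58.1 in R 4.3.3 (1 fit of the 12 libraries, eBayes with a trend). This replaces a count test because the deposited values are FPKM, and limma voom on the recovered reads was run as an alternative. Fold changes on this scale understate those of low genes. The 15016 genes with a mean of at least 0.5 FPKM were tested, with Benjamini-Hochberg adjustment in each of 3 comparisons and a threshold of 0.05. Named genes are all members called in any comparison and the core subunits of each complex. The members and lists were chosen with earlier results of these data known. The procedure was tested on simulated data.

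GC content came from GENCODE vM21 transcripts (GRCm38, 14699 tested genes), and loess corrections used a span of 0.3. Libraries with the same number were not paired, since nothing in the labels ties them. Alternatives were other pseudocounts, filters and scalings, length and GC corrections, a replicate block, limma voom on recovered reads, and leaving out each library. Scripts used Python 3.11.15 with pandas 2.3.3, numpy 2.4.6, scipy 1.17.1 and matplotlib 3.10.9.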

Additional observations from a re-analysis of the deposited data

Results flagged for a closer look

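In 99 groups of 4 libraries (the 17 called members and the core subunits), 7 held a library far from its 3 neighbours by Dixon's test, where chance gives about 1 in 20. Of these, 4 lie in the Trauma group and 3 in the Trauma+TGF-β1 group. Dynll2 was at 160 FPKM in Trauma 4 (others 151 to 153), Kif3b at 39.7 FPKM in Trauma 4 (others 41.6 to 41.8), Kif2a at 29.9 FPKM in Trauma 1 (others 27.1 to 27.4) and Kif17 at 1.86 FPKM in Trauma 1 (others 2.38 to 2.44). With TGF-β1, Kif3b was at 42.9 FPKM in library 1 (others 42.3 to 42.4), Dynlt3 at 15.8 FPKM in library 3 (others 17.9 to 18.1) and Kif13a at 4.94 FPKM in library 4 (others 5.23 to 5.26). The library that stood apart lay on the side of the other group for Kif2a and Dynlt3, which rose with TGF-β1, and away from it for Dynll2, which fell.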

How the results depend on the processing

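In Trauma against Control, the 3 calls became 0 without a filter on low values, 0 in a fit of the 2 groups and 1 with the length correction and the replicate block, and were 0 to 2 with 1 library left out. Of all genes, 1.7%, 3.52% and 5.51% passed in these settings and 3.09% to 5.57% with 1 library left out, against 5.82%. The median (-0.0135) became 0.0183 without the filter and was -0.0236 to -0.0054 with 1 library left out.

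In Trauma+TGF-β1 against Trauma, the 10 calls became 4 with the GC correction, 4 with the GC correction and the block and 5 with the length correction and the block, and were 3 to 10 with 1 library left out. Of all genes, 5.79%, 4.67% and 5.36% passed in these settings and 4.28% to 11.6% with 1 library left out, against 12.3%. The median (-0.0176) became 0.0224 under quantile normalization and 0.0326 with the GC correction, with or without the block, and was -0.0227 to -0.0048 with 1 library left out.

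In Trauma+TGF-β1 against Control, the 10 calls became 5 under quantile normalization, 6 in a fit of the 2 groups, 5 with the GC correction and 5 with the GC correction and the block, and were 6 to 14 with 1 library left out. Of all genes, 13.7%, 10.1%, 12.6% and 12.1% passed in these settings and 9.58% to 22.8% with 1 library left out, against 16.3%. The median (-0.0077) became 0.0139 without the filter, 0.022 under quantile normalization and -0.0256 with the length correction, with or without the block, and was -0.0333 to 0.0144 with 1 library left out. Kif1a turned from -0.15 to 0.022 under quantile normalization.

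With the replicate block alone, 3, 11 and 9 members were called in the 3 comparisons, and 5.2%, 10.2% and 14.8% of all genes. Same-numbered libraries of 2 groups deviated from their group means with correlations of -0.00884 to 0.0762, and differently numbered ones with -0.0912 to 0.0733. A small correlation cannot exclude pairing, so whether the numbers pair samples was not settled. Limma voom on the recovered reads called 3, 11 and 11 members and 1128, 2557 and 2896 genes, and the count over all genes rose in each comparison.

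Of the 23 single-gene calls, each tried under 21 alternatives, 1 passed throughout (Dynlt3 in Trauma+TGF-β1 against Control), and over all pairs of call and alternative 356 of 483 passed, 126 kept the direction only and 1 turned. The causes were not tested. With 4 libraries a group, the lowest members had the widest intervals.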
